A study of Rattus norvegicus with 6 samples.

Results

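The matrix metalloproteinases (Mmps) and the tissue inhibitors that block them (Timps) were followed in the skeletal muscle of newborn rats. The set holds 10 genes, namely the collagenases *Mmp13* and *Mmp8*, the gelatinases *Mmp9* and *Mmp2*, the stromelysin *Mmp3*, the metalloelastase *Mmp12*, the membrane-anchored *Mmp14* and the inhibitors *Timp1*, *Timp2* and *Timp3*. Each gene has 1 row among the 26419 rows of the array, of which 9781 could be given a symbol (9660 distinct genes). *Mmp13* was recognized by the accession that the study prints for it (XM_001072242), and the other 9 genes through the RefSeq gene table. The set was selected on the deposited LBW and ABW values themselves, with earlier results of these arrays known, and *Mmp13*, *Mmp8* and *Mmp9* are among the genes that the study lists as most upregulated on them. The levels of the 10 genes are therefore given as a description, without a test.

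The animals were 1-day-old male Wistar rats. Lower birth weight (LBW) stands for percentiles 5 to 25. Average birth weight (ABW) pups, the newborn controls, are placed in percentiles 50 to 75 by the protocol and in 25 to 75 by the labels of the samples. The labels give no treatment and no difference between the groups other than birth weight. RNA of the pooled soleus and gastrocnemius muscles of each pup was hybridized to a single-colour NimbleGen array, with 3 LBW and 3 ABW pups and 1 array per pup. The labels call the pups biological replicates but do not say which shared a litter.

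Mmps are zinc-dependent enzymes that are secreted, or held at the cell surface, as inactive precursors and cut the proteins of the extracellular matrix once activated. Collagenases open the triple helix of fibrillar collagen, and gelatinases degrade the denatured chains and the collagen of basement membranes. Timps bind the active site of the enzymes and stop them. In the newborn skeleton, *Mmp13* is known from hypertrophic chondrocytes and osteoblasts and *Mmp9* from osteoclasts, whereas *Mmp8* is stored in the granules of neutrophils. In muscle, *Mmp2* and *Mmp14* are known mostly from fibroblasts and other cells of the connective tissue.

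In *Rattus norvegicus*, *Mmp13*, *Mmp12*, *Mmp3* and *Mmp8* belong to a run of 10 neighbouring Mmp genes on chromosome 8, in the order *Mmp13*, *Mmp12*, *Mmp1b*, *Mmp3*, *Mmp1*, *Mmp10*, *Mmp8*, *Mmp27*, *Mmp20* and *Mmp7*. The others are scattered, with *Mmp9* on chromosome 3, *Mmp14* on 15, *Mmp2* on 19, *Timp3* on 7, *Timp2* on 10 and *Timp1* on X. Of the 10 neighbours, 6 had a row with a symbol. The ends of the run of members, *Mmp13* and *Mmp8*, were far higher in LBW pups, and *Mmp12*, *Mmp3* and *Mmp10*, the genes between them that had a row, were not. On the log2 scale the LBW mean minus the ABW mean was 5.21 for *Mmp13* and 3.03 for *Mmp8*, compared to 0.13 for *Mmp12*, 0.06 for *Mmp3*, -0.09 for *Mmp10* and -0.05 for *Mmp7*.

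The sequences before the starts of the 4 members of this cluster are shown because their genes lie side by side and differ so much between the groups. They are the bases from -160 to -21 before the gene start that RefSeq gives on the build GRCr8, 140 bases each, all on the plus strand. *Mmp13* is at chr8:12782669-12782808, *Mmp12* at chr8:12866492-12866631, *Mmp3* at chr8:12925121-12925260 and *Mmp8* at chr8:13008730-13008869. Capitals mark 3 motifs searched on both strands, which are the AP-1 motif TGANTCA, the Runx motif TGTGGT and the TATA motif TATAAA.
*Mmp13*: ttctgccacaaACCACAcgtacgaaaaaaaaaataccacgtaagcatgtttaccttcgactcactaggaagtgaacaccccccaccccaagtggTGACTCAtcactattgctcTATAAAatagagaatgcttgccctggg
*Mmp12*: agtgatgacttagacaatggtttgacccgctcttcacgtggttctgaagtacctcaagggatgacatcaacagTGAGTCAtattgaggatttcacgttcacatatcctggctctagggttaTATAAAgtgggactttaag
*Mmp3*: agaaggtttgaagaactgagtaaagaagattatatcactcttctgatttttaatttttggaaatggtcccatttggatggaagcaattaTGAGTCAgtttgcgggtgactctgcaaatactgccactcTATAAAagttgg
*Mmp8*: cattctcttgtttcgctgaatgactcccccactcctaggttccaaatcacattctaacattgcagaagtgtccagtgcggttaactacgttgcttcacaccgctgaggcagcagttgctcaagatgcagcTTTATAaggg

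The AP-1 motif, whose letters read the same on both strands, was found in *Mmp13* (from base -66), *Mmp12* (-87) and *Mmp3* (-71) and not in *Mmp8*. Of 33469 promoters in the table, 3.42% hold it in the same window. The Runx motif was found in *Mmp13* alone of these 4 (from -149, on the minus strand), and 7.83% of all promoters hold it. The TATA motif was present in all 4, on the minus strand in *Mmp8*, against 7.73% of all promoters. None of the 3 motifs was found in this window of *Timp1*, *Timp2* or *Timp3*. *Mmp9*, *Mmp2* and *Mmp14* have no entry in the promoter table. Of the 3 motifs, *Mmp13* and *Mmp8* thus shared only the TATA motif, and *Mmp12* and *Mmp3* carried the AP-1 motif as *Mmp13* did. Only exact letters in this window were searched, in genes whose differences were already known. Whether any motif bears on the differences between the groups was not tested. A match of letters says nothing of whether a factor was bound.

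Each value below is the log2 signal that the authors deposited after their own normalization, so that a step of 1 is a doubling of brightness. The medians of the 6 arrays ran from 8.695 to 8.757 and their values from 4.577 to 15.49. LBW 2 stood apart from the other LBW pups. Of the 629 rows that were higher in LBW by limma at the threshold of the study (an unadjusted p under 0.05 with a fold change of at least 1.5), it lay closest to the ABW pups in 477 (75.8%), and its correlation with ABW 1 over all rows was 0.9925, compared to 0.9884 for LBW 1 and 0.9872 for LBW 3. The differences that its values lower most are therefore given without it as well. LBW 2 was picked on this same contrast, so larger differences and more calls without it follow from that choice and are no independent evidence. The listed skeletal muscle genes were bright on average in both groups. All 9 of the 12 listed skeletal muscle genes that had a row, such as *Acta1*, *Ckm* and *Myh3*, stood below the threshold of a difference, and their mean level was between 13.93 and 13.95 in LBW and between 13.82 and 14.00 in ABW pups. Some genes of other tissues were as bright. The cartilage gene *Col2a1* was between 13.41 and 14.28 over the 6 pups. The bone gene *Ibsp* was at 13.63, 9.86 and 14.19 in LBW 1, 2 and 3 and between 7.36 and 8.47 in ABW pups. The muscle genes therefore do not show that the samples held muscle alone. Without detection calls in the files, no bound on dim signals can be given. In these whole-muscle samples, more cells of a type and more RNA per cell cannot be told apart.

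**Figure D1:**
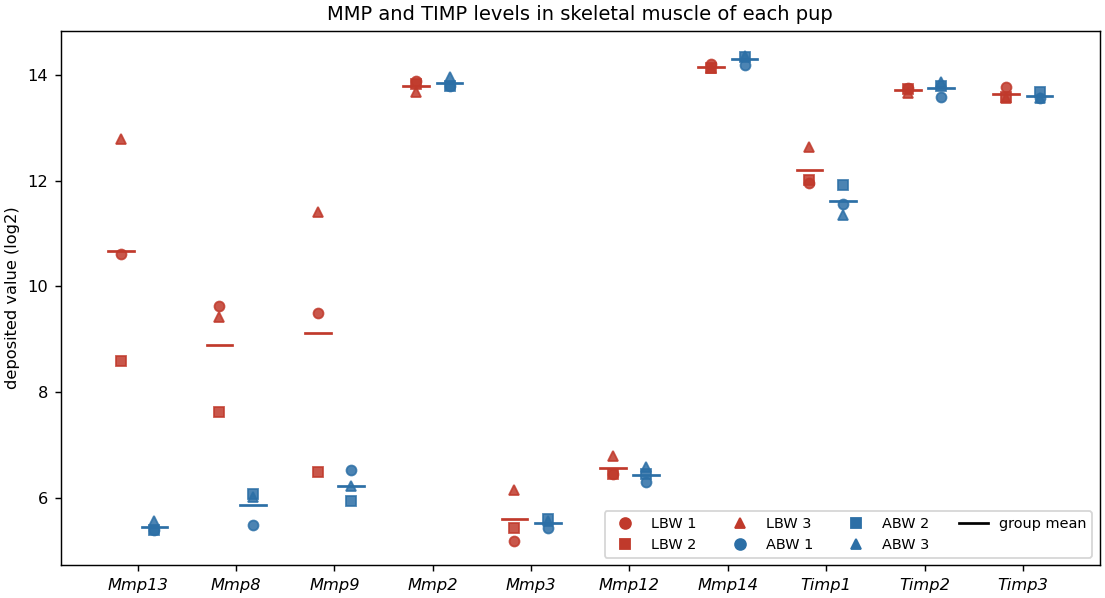
Deposited log2 value (vertical axis) of each of the 10 genes in each pup, with LBW in red, ABW in blue, a marker shape for each replicate number and a bar at the group mean (n = 3 each). *Mmp13* and *Mmp8* separate all LBW from all ABW pups, *Mmp9* separates LBW 1 and LBW 3 only, and *Mmp2*, *Mmp14*, *Timp2* and *Timp3* lie within 0.29 over all 6 pups.

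The collagenase *Mmp13*, which cuts the type II collagen of cartilage as well as the collagen of bone, had the widest gap between the groups. The signals were 10.62, 8.59 and 12.78 in LBW 1, 2 and 3, and 5.41, 5.40 and 5.57 in ABW 1, 2 and 3. Every LBW pup thus lay above every ABW pup, and the lowest LBW value was 3.02 above the highest ABW value on the log2 scale. The LBW pups spread over 4.19 and the ABW pups over 0.17. The LBW mean was 10.67 ± 2.10 (SD, n = 3) and the ABW mean 5.46 ± 0.10 (SD, n = 3), a difference of 5.21 (SE 0.95), or 37.0-fold. The difference was 6.25 without LBW 2, 5.23 without LBW 1 and 4.15 without LBW 3.

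*Mmp8*, the neutrophil collagenase, was at 9.64, 7.63 and 9.42 in LBW 1, 2 and 3 and at 5.49, 6.09 and 6.03 in ABW 1, 2 and 3. Again no LBW pup overlapped the ABW pups, and the gap between the nearest pups was 1.54. LBW 1 and LBW 3 were close to each other, unlike in *Mmp13*, where LBW 3 was the highest by far. The means were 8.90 ± 1.10 (SD, n = 3) and 5.87 ± 0.33 (SD, n = 3), a difference of 3.03 (SE 0.53), or 8.16-fold. Without LBW 2 the difference was 3.66, and over all pups left out in turn it stayed between 2.66 and 3.66.

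The gelatinases *Mmp9* and *Mmp2* cleave much the same substrates, and they behaved differently here. The signals of *Mmp9* were 9.50, 6.49 and 11.40 in LBW 1, 2 and 3, and 6.53, 5.96 and 6.24 in ABW 1, 2 and 3. LBW 2 was 0.04 below ABW 1, so the groups overlapped, while the other LBW pups lay well above all ABW pups. The means were 9.13 ± 2.48 (SD, n = 3) and 6.24 ± 0.29 (SD, n = 3), a difference of 2.89 (SE 1.13), or 7.41-fold. It was 4.21 without LBW 2 and 1.75 without LBW 3.

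*Mmp2*, by contrast, was at 13.88, 13.82 and 13.67 in LBW 1, 2 and 3 and at 13.78, 13.78 and 13.95 in ABW 1, 2 and 3. The groups overlapped, and all 6 pups lay within 0.28. The difference was -0.05 (SE 0.10), with an LBW mean of 13.79 ± 0.11 (SD, n = 3) and an ABW mean of 13.84 ± 0.10 (SD, n = 3), and it stayed between -0.09 and 0.01 with each pup left out in turn.

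*Mmp14*, the membrane-type enzyme that activates pro-*Mmp2* together with *Timp2*, was at 14.19, 14.12 and 14.12 in LBW 1, 2 and 3 and at 14.19, 14.33 and 14.36 in ABW 1, 2 and 3. LBW 2 and LBW 3 were below all ABW pups, and LBW 1 exceeded ABW 1 by 0.01. The difference was -0.15 (SE 0.09), which is a fold change of 0.902, and it was negative with any pup left out (-0.20 to -0.12).

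*Mmp3*, a stromelysin with a broad range of matrix substrates, was at 5.20, 5.44 and 6.16 in LBW 1, 2 and 3 and at 5.45, 5.61 and 5.57 in ABW 1, 2 and 3. LBW 3 was the highest and LBW 1 the lowest of the 6 pups. The difference of 0.06 (SE 0.24) took both signs with single pups left out, from -0.22 without LBW 3 to 0.26 without LBW 1. *Mmp12*, the elastase of macrophages, was at 6.47, 6.46 and 6.80 in LBW 1, 2 and 3 and at 6.30, 6.46 and 6.59 in ABW 1, 2 and 3. LBW 3 was again the highest pup, the groups overlapped, and the difference of 0.13 (SE 0.13) was 0.015 without LBW 3 and 0.185 without LBW 2.

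Among the inhibitors, *Timp1* was the only one whose groups did not overlap. This secreted inhibitor, which binds pro-*Mmp9*, was at 11.95, 12.01 and 12.62 in LBW 1, 2 and 3 and at 11.57, 11.92 and 11.36 in ABW 1, 2 and 3. The nearest pups, LBW 1 and ABW 2, differed by 0.03, which is far less than the SD within either group. The LBW mean was 12.20 ± 0.37 (SD, n = 3) and the ABW mean 11.62 ± 0.29 (SD, n = 3). The difference was 0.58 (SE 0.23), or 1.495-fold, just short of the 1.5-fold criterion of the study. It was 0.37 without LBW 3 and 0.67 without LBW 2.

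*Timp2*, which takes part in the activation of pro-*Mmp2*, and *Timp3*, which is bound to the matrix, hardly moved. *Timp2* was at 13.74, 13.72 and 13.66 in LBW 1, 2 and 3 and at 13.58, 13.79 and 13.87 in ABW 1, 2 and 3, a difference of -0.04 (SE 0.10). *Timp3* was at 13.76, 13.58 and 13.55 in LBW 1, 2 and 3 and at 13.56, 13.67 and 13.57 in ABW 1, 2 and 3, a difference of 0.03 (SE 0.09). In both genes the LBW pups lay among or next to the ABW pups. The signs of both differences changed when single pups were left out.

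**Figure D2:**
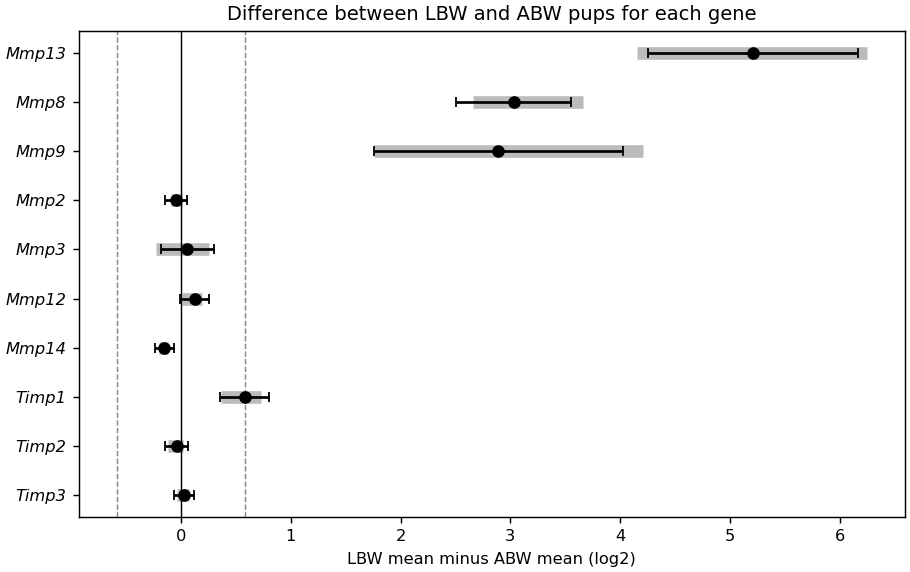
LBW mean minus ABW mean on the log2 scale (horizontal axis) for each gene, with the SE from limma as error bars, the range over leaving out each pup in turn as grey bands and dashed lines at a 1.5-fold change in either direction (n = 3 per group). *Mmp13*, *Mmp8* and *Mmp9* lie between 2.89 and 5.21, *Timp1* is at 0.58, and the other 6 genes are between -0.15 and 0.13.

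Of the 10 genes, 3 (*Mmp13*, *Mmp8* and *Mmp9*) had at least a 1.5-fold higher LBW mean, and 0 had a mean lower by as much. Over all 26419 rows, 3.27% were higher by that fold. All 3 were also at least 2-fold higher, as were 1.12% of all rows. Another set of 3 genes (*Mmp13*, *Mmp8* and *Timp1*) had all LBW pups above all ABW pups, as did 7.28% of all rows. The reverse, all LBW pups below all ABW pups, held for 0 of the 10 genes and for 10.1% of all rows. Because these genes were chosen with this comparison in view, nothing can be read from these counts. The median difference was 0.09 over the 10 genes and -0.02 over all rows. In ABW pups, the signals of *Mmp13*, *Mmp3*, *Mmp8*, *Mmp9* and *Mmp12* were in the dim part of the array, with between 9.77% and 28.6% of all rows below them. Between 81.6% and 98.6% of all rows lay below *Timp1*, *Timp3*, *Timp2*, *Mmp2* and *Mmp14*. Brightness depends on the probes as well as on the RNA, so this places the signals on the array and does not rank the transcripts.

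The collagenases and gelatinases were then set beside the inhibitors in each pup, as the mean deviation of each class from its ABW mean on the log2 scale. The mean of *Mmp13*, *Mmp8*, *Mmp2* and *Mmp9* was 3.06, 1.28 and 3.97 in LBW 1, 2 and 3, and between -0.05 and 0.09 in the ABW pups. The mean of the Timps was 0.16, 0.12 and 0.29 in LBW 1, 2 and 3, and -0.08, 0.14 and -0.06 in ABW 1, 2 and 3. All LBW pups were thus above the ABW pups in the proteinases, whereas the inhibitors of LBW 2 lay below those of ABW 2. The difference between both classes was 2.89, 1.17 and 3.68 in LBW 1, 2 and 3 (2.58 ± 1.29, SD, n = 3) against 0.03, -0.18 and 0.15 in ABW 1, 2 and 3. It was 3.29 without LBW 2. *Mmp2*, whose own difference was -0.05, is part of the class and lowers its mean. The remaining Mmps (*Mmp3*, *Mmp12* and *Mmp14*) were at -0.14, -0.09 and 0.27 in LBW 1, 2 and 3.

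*Timp1* is the inhibitor that was higher in all LBW pups. In each of these pups, the collagenases deviated further from their ABW means than *Timp1* did from its own. On the log2 scale, the deviation of *Mmp13* minus that of *Timp1* was 4.82, 2.74 and 6.32 in LBW 1, 2 and 3. For *Mmp8* it was 3.43, 1.37 and 2.55. For *Mmp9* it was 2.92 and 4.16 in LBW 1 and LBW 3, and in LBW 2, at -0.14, it was within the ABW pups, which ran from -0.59 to 0.34. These are unequal changes of RNA signals within an array and not a measure of enzyme activity.

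**Figure D3:**
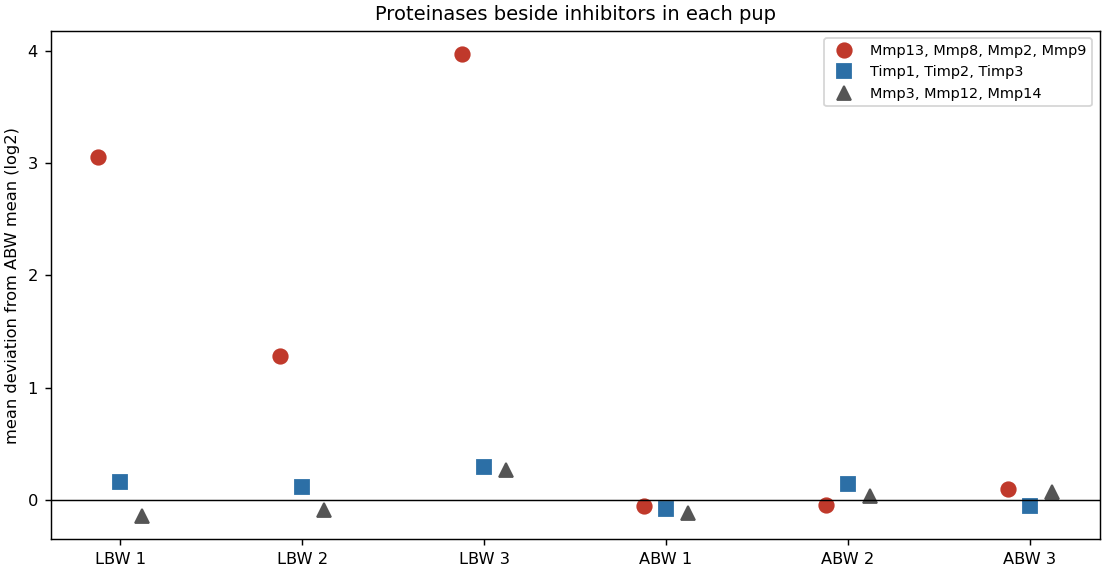
Mean deviation from the ABW mean on the log2 scale (vertical axis) in each pup (horizontal axis) for the collagenases and gelatinases (red circles), the Timps (blue squares) and the remaining Mmps (grey triangles), with 1 point per pup and class. The red points are at 3.06, 1.28 and 3.97 in LBW pups, and all blue and grey points stay between -0.14 and 0.29.

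*Mmp13*, *Mmp8* and *Mmp9* did not follow a single pattern over the pups. Likeness was measured as the root mean square over the 6 pups of the difference between the deviations of a pair of genes from their own ABW means, in log2 units, for all 9660 named genes. The measure is not scaled, so only genes with an LBW minus ABW difference of similar size can rank as near. That difference was known when the set was chosen, and the ranking is a description and no independent evidence. Nearest to *Mmp13* were *Spp1* (0.42), which encodes osteopontin, and *Ibsp* (0.71), which encodes bone sialoprotein, followed by *Bglap* (osteocalcin, 1.39), *Panx3* (1.56) and *Mmp9* itself (1.67). *Spp1* deviated by 5.71, 2.45 and 6.91 in LBW 1, 2 and 3, compared to 5.16, 3.14 and 7.33 for *Mmp13*. These genes share with *Mmp13* a lower value in LBW 2.

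Nearest to *Mmp8* were *Stfa2*, a stefin of the cystatin family (0.58), the alkaline phosphatase *Alpl* (0.59), *Tnn* (0.64), the calgranulin *S100a9* (0.68) and *Slc13a5* (0.74). *Stfa2* (2.69, 1.40 and 2.83 in LBW 1, 2 and 3) and *S100a9* (2.51, 1.39 and 2.66) resembled *Mmp8* (3.77, 1.76 and 3.55) in LBW 2 more than *Alpl*, *Tnn* and *Slc13a5* did, which were at 0.65, 0.34 and 0.07 in that pup. In LBW 1 and LBW 3 the reverse held. There *Alpl* (3.275 and 4.121), *Tnn* (3.337 and 3.674) and *Slc13a5* (3.422 and 3.185) lay nearer to *Mmp8*. Nearest to *Mmp9* were *Atp6v0d2*, a proton pump subunit of osteoclasts (0.34), *Dmp1*, a matrix protein of osteocytes (0.47), *Alpl* (0.52), *Panx3* (0.58) and *Tnn* (0.64). *Atp6v0d2* deviated by 2.86, 0.01 and 5.18 in LBW 1, 2 and 3, beside 3.26, 0.25 and 5.16 for *Mmp9*. In LBW 2, *Mmp9*, *Atp6v0d2* and *Dmp1* were thus within the range of the ABW pups. *Alpl*, *Tnn* and *Panx3* lay above the highest ABW pup by 0.25, 0.23 and 0.0035. For *Mmp13* and *Mmp8* that gap was 3.02 and 1.54.

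**Figure D4:**
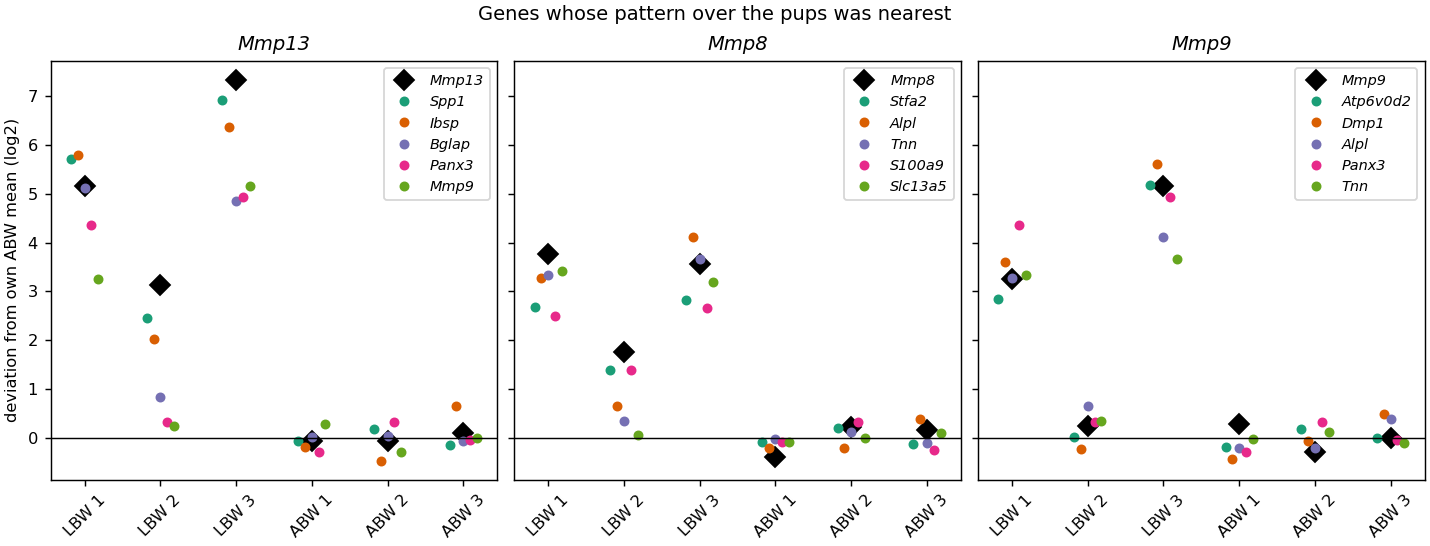
Deviation from the gene's own ABW mean on the log2 scale (vertical axis) in each pup (horizontal axis) for *Mmp13*, *Mmp8* and *Mmp9* (black diamonds) and the 5 named genes nearest to each (coloured circles), with 1 point per pup and gene. In LBW 2, *Mmp13* is at 3.14 and *Mmp8* at 1.76, and *Mmp9* is at 0.25 beside neighbours between -0.23 and 0.65.

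Marker genes of other tissues moved with these Mmps. Of the 12 bone genes listed, 11 had a row, all 11 had a higher LBW mean, and 7 passed the threshold of the study by limma, which 2.38% of all rows passed in this direction. The median difference was 2.26, and 3.15 without LBW 2. Their mean level was 10.35, 7.89 and 11.29 in LBW 1, 2 and 3 and between 7.31 and 7.51 in ABW pups, so that LBW 3 was the highest and LBW 2 the lowest LBW pup, as for *Mmp13* and *Mmp9*. Without LBW 2 all 11 passed, whereas 3 did without LBW 1, 4 without LBW 3 and 3 by the methods' t-test. *Spp1* (5.02, and 6.31 without LBW 2), *Ibsp* (4.73 and 6.08) and *Bglap* (3.60 and 4.99) differed most, and the study lists all of them as upregulated on these arrays. *Alpl* and *Runx2*, which also passed, are in that list too, so the count of bone genes is no independent evidence. Of the 7 neutrophil genes with a row (of 12 listed), 5 passed, all higher in LBW, at a median difference of 1.48 for the list (1.88 without LBW 2), with *S100a9* (2.19), *S100a8* (2.05) and *Camp* (1.99) differing most. Their mean level was 9.96, 8.88 and 9.48 in LBW 1, 2 and 3, with LBW 1 the highest as for *Mmp8*, and between 8.01 and 8.28 in ABW pups. With any 1 pup left out, 5 were called again. The study lists these 5 genes as upregulated on the same arrays, so they are no independent evidence. The neutrophil gene *Prtn3* was at 5.93, 5.91 and 5.73 in LBW pups, where ABW pups were at 5.85, 5.98 and 5.96. *Lcn2*, the other neutrophil gene that did not pass, was far brighter and differed by 0.12. It was at 12.37, 11.96 and 11.77 in LBW 1, 2 and 3 and at 12.02, 11.82 and 11.90 in ABW 1, 2 and 3.

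Of 7 osteoclast genes with a row (of 12), 6 had a higher LBW mean and 1 passed, *Acp5* (1.97, and 2.81 without LBW 2), while *Atp6v0d2* (2.68 and 4.02) and *Itgb3* (0.46 and 0.70) did not, against the same 2.38% of all rows. The median difference was 0.38, and 0.55 without LBW 2. Without LBW 2, 3 passed, and without any other single pup 0 did. The mean level was 10.23, 9.41 and 10.94 in LBW 1, 2 and 3 and between 9.28 and 9.40 in ABW pups. Of 6 cartilage genes (of 12), 2 passed, *Acan* (2.07, and 3.07 without LBW 2) and *Col10a1* (1.31 and 1.58), and *Hapln1* (1.17 and 1.78) did not. The median difference was 1.00, and 1.52 without LBW 2. Their mean level was 9.40, 8.40 and 10.18 in LBW 1, 2 and 3, against 8.18 to 8.49 in ABW pups. Without LBW 2, 4 passed, and with any other pup left out 1 did. *Acp5*, *Acan* and *Col10a1* are likewise listed by the study as upregulated on these arrays, so they are no independent evidence. Of the remaining lists, 0 of 7 macrophage genes and 0 of 6 fibroblast genes passed by limma, with 0 of either list at an unadjusted p under 0.05 and 0 called by the methods' t-test. Their mean levels were 11.70 to 11.73 and 12.51 to 12.59 in LBW pups and 11.54 to 12.01 and 12.63 to 12.74 in ABW pups. All 6 fibroblast genes had a lower LBW mean, by a median of -0.11. The mean level of the list did not overlap between the groups, with 12.59 in the highest LBW and 12.63 in the lowest ABW pup. However, 0 of the 6 genes had all LBW pups below all ABW pups, as 10.1% of all rows did. Of the 7 macrophage genes 5 were lower, and the list overlapped. *Adgre1* (-0.51), *Csf1r* (-0.26) and *C1qc* (-0.22) differed most among the macrophage genes, and *Fap* (-0.23), *Lum* (-0.14) and *Thy1* (-0.13) among the fibroblast genes. Which part the bone, cartilage, osteoclast and neutrophil genes have in the higher Mmp values was not tested.

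The wider machinery of extracellular proteolysis was then read from the same arrays, to see whether the change reached beyond the 10 genes. Of 118 further genes listed, 68 had a row. At the threshold of the study, limma called 9 of them higher and 1 lower in LBW pups, that is 10 of 68, where 4.28% of all rows passed in either direction, 2.38% higher and 1.90% lower. The median difference of the 68 was 0.08, compared to -0.02 over all rows. None of the 26419 rows, and so 0 of the 68, passed after Benjamini-Hochberg adjustment over all rows by limma (smallest adjusted p = 0.216), whereas 3270 rows (12.4%) had an unadjusted p under 0.05. The methods' t-test on the same values also gave 0 rows after adjustment and 2515 at an unadjusted p under 0.05. Without LBW 2, limma gave 126 rows after adjustment, among them *Acan*, *Spp1* and *Ibsp* of the 68 genes. This pup was singled out on the same contrast, so the gain is no independent evidence.

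The 10 calls lay in 3 of the 6 lists. Among the other Mmps, 7 of 18 listed genes had a row and 0 passed the threshold of the study by limma or by the methods' t-test, *Mmp28* (-0.40, adjusted p = 0.291 by limma) and *Mmp23* (-0.39, adjusted p = 0.429 by limma) differing most, both lower in LBW. *Mmp28* was the 1 gene of this list at an unadjusted p under 0.05. Without ABW 1, 2 of these 7 passed. The related ADAM and ADAMTS proteinases had 7 genes with a row (of 21), 0 calls by either test and 1 gene, *Adamts5*, at an unadjusted p under 0.05 by limma. The aggrecanase *Adamts5* was 11.81, 11.54 and 11.75 in LBW 1, 2 and 3 and 11.93, 12.24 and 12.16 in ABW 1, 2 and 3, lower in all LBW pups by a difference of -0.41 (adjusted p = 0.308 by limma). *Adamts1* was at a difference of 0.22 (adjusted p = 0.625 by limma). Of the cathepsins, which are mostly lysosomal proteinases, and their cystatin inhibitors, 12 of 14 had a row and 0 passed by either test. *Ctsk*, the collagen-degrading cathepsin of osteoclasts, was at 13.36, 12.85 and 13.78 in LBW 1, 2 and 3, with the low value again in LBW 2, and at 12.96, 13.07 and 13.08 in ABW pups (difference 0.29, adjusted p = 0.646 by limma). *Ctsc*, which activates the serine proteinases of neutrophils, was at a difference of -0.25 (adjusted p = 0.327 by limma) and was the 1 gene of this list at an unadjusted p under 0.05.

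Activators and surface regulators of Mmps had 13 genes with a row (of 19), of which 9 had a higher and 4 a lower LBW mean. At the threshold of the study, 2 passed as higher and 0 as lower, *A2m* being the one described here. *A2m*, a plasma inhibitor that traps proteinases of all classes, was at 6.76, 6.35 and 7.40 in LBW pups and at 6.20, 5.91 and 6.26 in ABW pups, a difference of 0.71 (SE 0.27, adjusted p = 0.366 by limma). No LBW pup overlapped the ABW pups, and the difference was 0.95 without LBW 2. *A2m* passed in 1 of the 6 fits that left out a pup and not by the methods' t-test. The activators *Plau* (0.39), *Plat* (0.09) and *Furin* (0.19) did not pass.

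Of 14 Mmp substrates with a row (of 24), 9 had a higher and 5 a lower LBW mean. At the threshold of the study, 4 passed as higher and 0 as lower. These were *Spp1* (5.02, SE 1.05, adjusted p = 0.249 by limma), *Ibsp* (4.73, SE 1.10, adjusted p = 0.262), the proteoglycan of cartilage *Acan* (2.07, SE 0.84, adjusted p = 0.391) and *Col10a1*, the collagen of hypertrophic cartilage (1.31, SE 0.29, adjusted p = 0.253). All 4 are in the list that the study chose on these samples, so they are no independent evidence. *Acan* overlapped between the groups, with 8.29 in LBW 2 and 8.49 in ABW 3, and it passed in 1 of 6 fits that left out a pup (3.07 without LBW 2) and not by the methods' t-test. *Spp1*, *Ibsp* and *Col10a1* passed in all 6 and by that test. The fibrillar collagens that the collagenases cleave did not pass, with differences of -0.17 for *Col1a2*, -0.05 for *Col3a1* and 0.33 for *Col2a1*.

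Transcription factors with known sites in Mmp promoters had 15 genes with a row (of 22), of which 10 had a higher and 5 a lower LBW mean. At the threshold of the study, 3 passed as higher and 1 as lower. *Fos*, a subunit of the AP-1 dimer, was at 9.77, 10.32 and 9.49 in LBW 1, 2 and 3 and at 8.86, 8.67 and 8.93 in ABW pups. All LBW pups were above all ABW pups and LBW 2 was the highest, unlike in *Mmp13*. The difference was 1.04 (SE 0.21, adjusted p = 0.249 by limma), and it passed in all 6 fits that left out a pup. *Jun*, the usual partner of *Fos*, was lower in LBW pups, at a difference of -0.46 (unadjusted p = 0.028, adjusted p = 0.349 by limma). The highest LBW pup, at 10.02, was below the lowest ABW pup, at 10.12. *Jun* did not pass, because its fold change fell short of the threshold. *Runx1*, a factor of blood cell development, was at 10.27, 10.55 and 10.46 in LBW and at 9.85, 9.92 and 9.49 in ABW pups (difference 0.68, SE 0.14, adjusted p = 0.249 by limma), again without a low LBW 2. It passed in 5 of the 6 fits and not without ABW 3, where the difference was 0.54. *Runx2*, the osteoblast factor, was at 9.02, 7.05 and 10.38 in LBW and at 7.09, 6.17 and 6.40 in ABW pups, and LBW 2 was below ABW 1 (difference 2.26, SE 0.79, adjusted p = 0.347 by limma). The difference was 3.15 without LBW 2. *Runx2* passed in 2 of the 6 fits and not by the methods' t-test. *Pparg*, the nuclear receptor of adipocytes, was at 9.12, 8.86 and 8.70 in LBW and at 9.26, 10.60 and 10.42 in ABW pups. It fell by 1.20 (limma, SE 0.35, adjusted p = 0.303) and passed in all 6, although not by the methods' t-test. Both *Pparg* and *Runx2* are in the lists of most changed genes that the study printed from these samples. *Fos* and *Runx1* were called on the same arrays, and the complete lists of the study were not available to look them up.

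**Figure D5:**
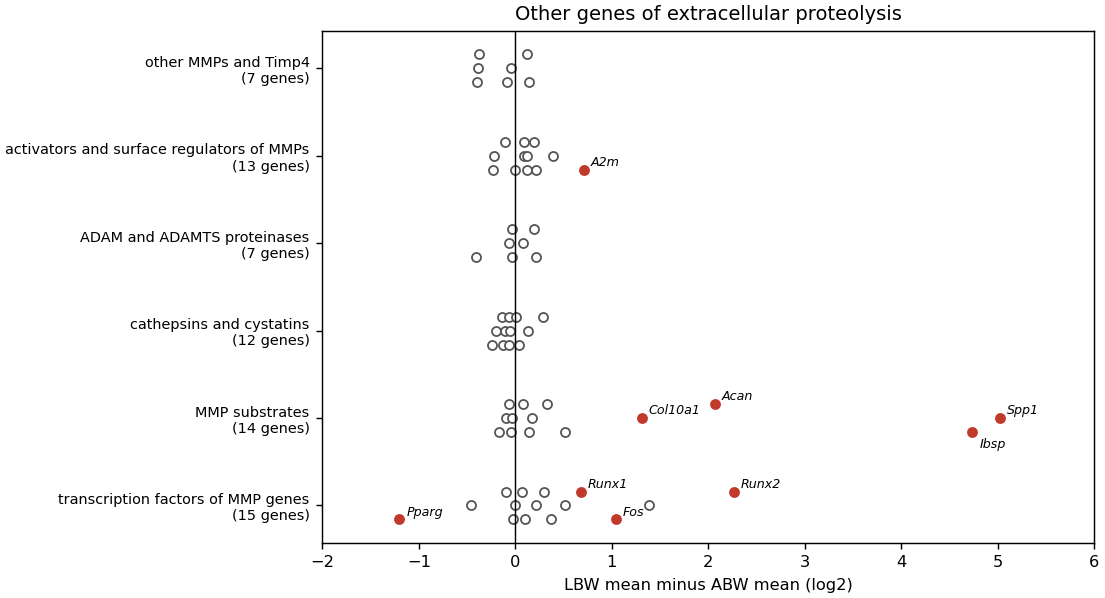
LBW mean minus ABW mean on the log2 scale (horizontal axis) for the 68 further genes of extracellular proteolysis, 1 circle per gene, by list, with *n* = 3 pups per group and 1 called gene of the activator list not drawn. Filled circles are genes past the threshold of the study by limma, 8 to the right of 0 and *Pparg* to the left, and the lists of other Mmps, of ADAM and ADAMTS proteinases and of cathepsins hold 0.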

How the data were processed

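The 6 NimbleGen arrays carry Cy3-labelled muscle RNA, 3 of LBW and 3 of ABW pups. The authors deposited 1 log2 value per transcript and pup, after normalization by their own scripts in R with Bioconductor packages. RMA, a method that includes a background correction, is named in the submitters' processing notes. How it shaped dim signals could not be examined. Groups and replicate numbers were taken from the titles. Members and gene lists were chosen with earlier results of these data known.

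Rows were named through a RefSeq gene table of GRCr8 (9747 rows) and, for 34 rows, by the accessions and symbols of the study's lists. A gene with several rows was given their average and called only where each row passed. The test was limma (version 3.58.1, R version 4.3.3) over all 26419 rows, 2-sided, by lmFit and eBayes with Benjamini-Hochberg adjustment. The threshold of the study was an unadjusted p under 0.05 with a fold change of at least 1.5. Precision is limited by the number of arrays. The fit was tested on simulated data.

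Genes named are the 10 members, in each list at most 4 called genes with the largest differences (or, with fewer than 2 called, the 2 largest), at most 3 per marker list, and the 5 genes nearest to *Mmp13*, *Mmp8* and *Mmp9*. *Acta1*, *Ckm*, *Myh3*, *Prtn3*, *Lcn2*, *Mmp10*, *Mmp7*, *Plau*, *Plat*, *Furin*, *Col1a2*, *Col3a1*, *Col2a1* and *Jun* were named after their values were seen. The values of 1 called gene are not reported here. Alternatives were quantile normalization, median centring, a filter on the dimmest 25% of rows, omission of each pup, a replicate block, eBayes with a trend, the study methods' t-test, a fold change of at least 2 and group medians. Whether the replicate numbers pair the pups is not known. Deviations from the group means correlated by 0.087, 0.103 and 0.0554 for the numbers 1, 2 and 3. For unlike numbers the correlations ran from -0.095 to 0.0205. Deviations from a mean of 3 pups are tied to each other, so these values cannot decide whether the pups were paired.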

Additional observations from a re-analysis of the deposited data

How the results depend on the processing

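The count of members at least 1.5-fold higher in LBW was 3 under the alternatives run, except that *Timp1* passed that fold as well without LBW 1, LBW 2 or ABW 2 (4 genes). Single differences changed sign in 7 recomputed values, of *Mmp2*, *Mmp3*, *Timp2* and *Timp3*. The replicate block and the filter on dim rows leave a member's own difference as it is by construction. *Mmp3* is among the dimmest 25% of rows and has no value without them, and no member has over 1 row, so that reading rows singly was not run. The proteinases minus the inhibitors (2.58) lay between 2.03 and 3.29 with a pup left out and at 2.85 with group medians. Of the further 68 genes, 10 were called, 6 by the methods' t-test, 7 at a fold change of at least 2, and between 6 (without ABW 3) and 12 (without LBW 2) with a pup left out. Over all rows, 1131 were called, 586 by the methods' t-test and 336 at a fold change of at least 2, and between 806 and 1555 with a pup left out. After adjustment 0 rows passed, except 126 without LBW 2 (range 0 to 126), and the cause was not tested. With the replicate block, 1236 rows and 10 of the 68 genes were called, and 0 rows passed after adjustment.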
